A study of Mus musculus with 20 samples.

Results

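The cytosolic ribosomal protein genes were taken by name: every gene whose name on the array reads Rps or Rpl followed by its number (with the suffixes a, x, y or l), or Rplp0 to Rplp2, pseudogene names left out. The rule found 81 genes, 47 of the large subunit, 3 of the P-stalk and 31 of the small subunit, among 25034 genes with a symbol on the array. Filtering asked that the brightest probe of a gene lie clearly over the background, by the scanner's mark, on 50% or more of the arrays of a comparison. That held for 78 of the 81 members in BRAFV600E against Cre control and for 79 in MEKi against Vehicle. The rule itself uses names and this filter, and no change between groups.

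Intestinal tissue of 20 C57BL6/j mice was measured, with 1 array per mouse. The 6 Cre control mice were VillinCreER/0, and the 6 BRAFV600E mice were VillinCreER/0/BrafV600E-LSL/+. The methods give equal numbers of males and females for these 12 mice, while Y-linked signal was high on 3 Cre control and 4 BRAFV600E arrays. Both groups were 8 to 12 weeks old, received 2 mg tamoxifen a day for 3 days and were sampled 3 days after the last dose. The 4 MEKi and 4 Vehicle mice received 1 mg tamoxifen a day for 2 days and then 3 days of the MEK inhibitor PD184352 or of its carrier. Y-linked signal was high on 4 MEKi and 2 Vehicle arrays, so by this signal sex was not balanced between them. That the MEKi and Vehicle mice carried the mutant allele is given by the figure legends of the study and not by the labels. All groups thus carried the tamoxifen-inducible Cre under the Villin promoter, which is active in the gut epithelium, while the RNA came from the tissue with its immune, muscle and stromal cells. In such bulk RNA, fewer cells of a type and less RNA per cell cannot be told apart. The first comparison asks what the mutant kinase changes within days, and the second asks what depends on MEK, the kinase downstream of BRAF.

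The ribosome joins a small subunit, which reads the mRNA, to a large subunit, which forms the peptide bond, and the P-stalk on the large subunit recruits the translation factors. Each cytosolic ribosomal protein is made in step with the others, and their mRNAs are among the most abundant of any dividing cell. Most of these mRNAs begin with a C and a run of pyrimidines at the cap, the terminal oligopyrimidine tract, through which mTORC1 controls their translation. The crypt epithelium renews without pause and therefore makes ribosomes at a high rate. Growth signals that pass through the MAPK pathway and Myc are known to raise ribosome production, mainly through ribosomal RNA synthesis, assembly factors and translation. An array reads the amount of mRNA and not its translation.

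The start sites of some of the members whose values are described below are shown first, because the tract is the feature that the family is known to share. Windows of 30 bases, 15 on either side of the annotated start, were read from RefSeq (GRCm38.p6), and 60 of the 81 members had an entry. Capitals mark a run of pyrimidines, a C followed by at least 4 more, counted from the annotated start. Failing that, they mark the first such run within 10 bases of it. In Rps6, Rpl15, Rps15a, Rps18 and Rplp2 the annotated start is itself such a C. There the pyrimidines also reach back before the start, in small letters, so the start lies within the run. In Rps2 and Rps7 the run begins a few bases after the start. Rps6 (chr4:86857353-86857382, minus strand), Rpl15 (chr14:18270972-18271001, minus strand), Rps2 (chr17:24720048-24720077, plus strand) and Rps7 (chr12:28635939-28635968, minus strand) were called in BRAFV600E. Rps15a (chr7:118116133-118116162, minus strand) was among the largest fitted decreases under MEKi, and Rps18 (chr17:33955651-33955680, minus strand) and Rplp2 (chr7:141447636-141447665, plus strand) were called in neither comparison. Rpl7, Rpl23a and Rpl30 had no entry. Every window shown holds a run, while Rplp0, Rpl10 and Rpl5, also described below, had none within 10 bases of the start.
Rps6: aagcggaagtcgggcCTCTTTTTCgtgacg
Rpl15: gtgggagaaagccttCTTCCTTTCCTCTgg
Rps2: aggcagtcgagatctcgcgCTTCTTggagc
Rps7: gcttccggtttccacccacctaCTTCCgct
Rps15a: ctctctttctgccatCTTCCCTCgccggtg
Rps18: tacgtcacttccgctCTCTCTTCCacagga
Rplp2: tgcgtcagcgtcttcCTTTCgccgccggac

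A C at the annotated start followed by at least 4 pyrimidines, sought only on the strand that reads as the mRNA, stood in 14 of the 60 members with an entry (23.3%) and in 813 of the 27025 genes of the table (3.01%). With the C allowed up to 10 bases before or after the start, 39 members (65.0%) and 34.4% of all genes held such a run. A missing run says only that these letters were not in the window. The median log2 fold change in BRAFV600E was 0.11 for the 14 members with the tract at the annotated start. It was 0.18 for the 43 tested members without it there, and the corresponding medians under MEKi were -0.12 and -0.12. Members with a run a few bases from the annotated start, such as Rps2 and Rps7, count here as without it. The split therefore cannot tell whether the tract goes with the change. Of the 7 members called in BRAFV600E, 2 had the tract at the start, 2 did not, and 3 had no entry.

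The members were among the brightest genes of the tissue. Levels are given as log2 of the processed signal minus the 75th percentile of the array, so that 0 is the level of a probe at that percentile and each unit above it is a doubling. In Cre control the median member lay at 6.83, 76 of the 78 tested members lay above 5 and 34 above 7. The brightest was Rplp1 at 8.36. Levels of different genes come from different probes and were not compared as amounts. The dimmest tested member was Rpl37, whose only probe read -4.57, far from the rest of the family, and its values say little about that gene. Rpl3l, a paralogue known from striated muscle, and Rpl39l, known from testis, were not well above background often enough to be tested in either comparison, and Rpl10l, also a testis paralogue, only in MEKi against Vehicle.

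The arrays lay on 3 slides, and the slides were not spread evenly over the groups. All 6 Cre control arrays shared slide 1 with replicates 1 and 2 of BRAFV600E, whose replicates 3 to 6 filled slide 2 alone. Slide 3 held MEKi in its first row and Vehicle in its second, so that row and treatment cannot be told apart. The slope of the spike-in controls was between 0.759 and 1.07 on slide 1, between 1.02 and 1.08 on slide 3, and was recorded as 0 on the 4 arrays of slide 2. The low slopes on slide 1 were all of Cre control, replicates 2, 3 and 5 (0.773, 0.843 and 0.759). The BRAFV600E arrays on that slide had slopes of 1.05 and 1.06. The 75th percentile of the signal ran from 525 to 1518 over the arrays, no spot was saturated, and between 60.8% and 76.8% of spots per array were well above background. Over all members and arrays 2 values were missing, both on BRAFV600E replicate 3, where the spots were marked as outliers. The genes, Rps12 among them, were fitted on the other 11 arrays. Replicates were separate mice with 1 array each, so a p-value measures the spread between mice and arrays together, and the number of arrays limits the precision. As a check of the labels, Etv4, a target of the MAPK pathway, rose from a mean level of -0.19 in Cre control to 2.31 in BRAFV600E, and it fell from 2.38 in Vehicle to -0.57 under MEKi (limma adjusted p = 0.000172 and 0.00329), with no overlap of the groups in either comparison. Array signal for Braf itself does not tell the mutant allele from the normal one.

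**Figure D1:**
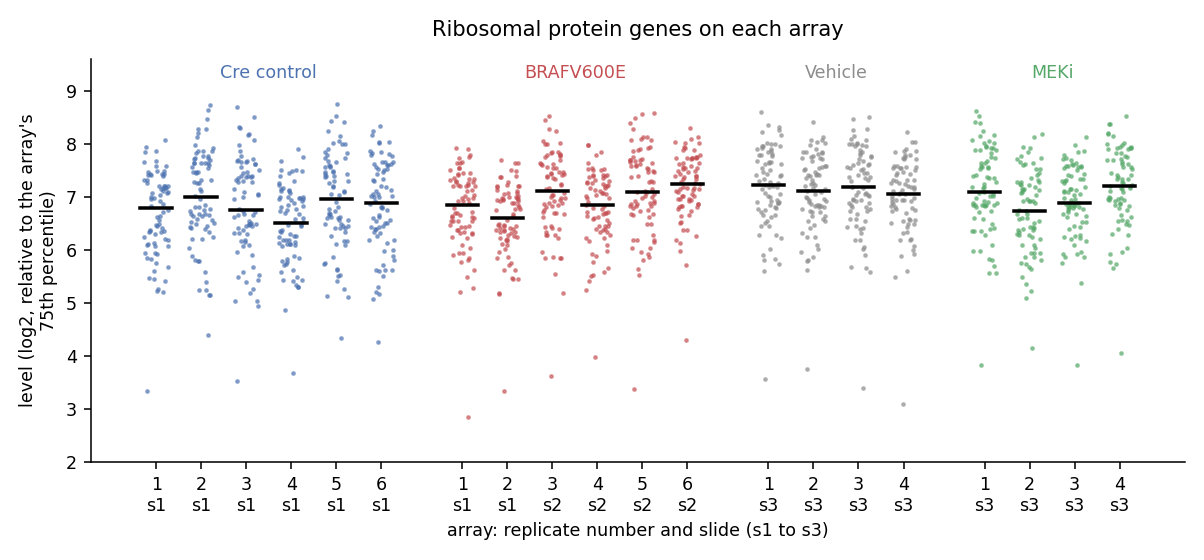
Level of each tested ribosomal protein gene (points, log2 relative to the 75th percentile of the array) on each of the 20 arrays, with the median of the tested members as a bar. Below each array stand its replicate number and its slide, and members with a level under 2 (Rpl37 and Rpl10l) are outside the axis. The median of Cre control ran from 6.50 to 6.99, that of the 2 BRAFV600E arrays on slide 1 from 6.60 to 6.85 and that of the 4 on slide 2 from 6.84 to 7.25.

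As a family the members moved together from array to array. After the mean of its group was subtracted from every gene, the median Pearson correlation between 2 members over the 20 arrays was 0.74 over the 78 members tested in both comparisons. This is a description, since all members of an array share its RNA, labelling and scaling. The median member level was 6.82 ± 0.18 (SD, n = 6) in Cre control, with a lowest array at 6.50, a median of 6.84 and a highest at 6.99. In BRAFV600E it was 6.96 ± 0.24 (SD, n = 6), with a lowest array at 6.60, a median of 6.97 and a highest at 7.25. The groups overlapped on this measure, and the 3 highest BRAFV600E arrays were all on slide 2.

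In BRAFV600E against Cre control, 58 of the 78 tested members had a positive and 20 a negative log2 fold change. Of all 19037 genes tested, 48.4% had a positive one. The median was 0.15 over the members and -0.02 over all genes tested. Limma called 7 members higher at an adjusted p under 0.05 (Benjamini-Hochberg over all genes tested), which is 8.97% of the members, beside 6.19% of all genes tested. It called 0 lower, beside 6.27% of all genes, with 1 member lower at an unadjusted p under 0.05. The share called higher was thus close to that of all genes. The 47 tested genes of the large subunit with its P-stalk had a median of 0.19 with 4 called, and the 31 of the small subunit a median of 0.05 with 3 called. Fitted on slide 1 alone, or with slide as a block, limma called 0 members (5 and 6 at an unadjusted p under 0.05), 24 of 78 had a positive change and the median was -0.13, beside -0.06 over all genes. The direction of the family as a whole was thus the opposite when the change was taken from slide 1. That slide held only 2 of the BRAFV600E arrays. Whether the turn came from the slide or from the mice on it was not tested.

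The 7 called members are described with their values on the arrays before the fitted change. Rpl7, a protein of the large subunit (probe at chr1:16092774-16092833 of mm9), read 5.26 at its lowest, 5.71 at the median and 5.95 at its highest in Cre control. In BRAFV600E it read 6.18, 6.40 and 6.78, so every mutant array lay above every control array. Its log2 change was 0.73 ± 0.15 (SE, limma adjusted p = 0.00949), a fold of 1.65. It was as large within slide 1, at 0.74 ± 0.21, where it was not called (limma adjusted p = 0.0954).

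Rps6, the small-subunit protein that the S6 kinases phosphorylate downstream of mTORC1 and of the MAPK pathway, read 5.96, 6.18 and 6.25 (lowest, median and highest) in Cre control and 6.45, 6.72 and 7.26 in BRAFV600E. Its groups did not overlap either, and the 6 control arrays lay close together. The change was 0.65 ± 0.15 (SE, limma adjusted p = 0.0150), and a second probe, whose 60 bases span 192 bases of the genome, gave 0.64 ± 0.13. On slide 1 alone it was 0.38 ± 0.16 (limma adjusted p = 0.215).

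Rps2, a small-subunit protein near the site where the mRNA enters, read 5.15, 5.43 and 5.53 in Cre control and 5.47, 6.14 and 6.83 in BRAFV600E. The lowest mutant array lay within the control range, and the mutant arrays were more spread (SD 0.48 against 0.14, n = 6 each). The change was 0.68 ± 0.20 (SE, limma adjusted p = 0.0456). The files place its brightest probe at chr17:42864841-42864900 of mm9 and its others at chr17:24857583-24857642 and chr17:24858999-24859058. The brightest probe, which gave the values above, is thus placed far from those others, and the origin of its signal was not tested. The first of those others gave 0.75 ± 0.14, and the second was too dim to be tested.

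Rpl23a, which lies at the exit of the peptide tunnel, read 5.52, 5.77 and 5.94 in Cre control and 6.11, 6.23 and 6.53 in BRAFV600E, with no overlap. The change was 0.51 ± 0.12 (SE, limma adjusted p = 0.0175). Its second probe, next to the first, gave 0.67 ± 0.18. Rpl15, a protein of the large subunit, read 4.95, 5.24 and 5.45 in Cre control and 5.53, 5.73 and 5.99 in BRAFV600E. Again every mutant array was above every control array, with a change of 0.51 ± 0.13 (SE, limma adjusted p = 0.0253).

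Rps7, a small-subunit protein, read 5.04, 5.25 and 5.42 in Cre control and 5.42, 5.72 and 6.19 in BRAFV600E, with a change of 0.51 ± 0.15 (SE, limma adjusted p = 0.0406). Its lowest mutant array fell just short of the highest control array. Rpl30, a small protein of the large subunit, read 5.40, 5.55 and 5.67 in Cre control and 5.85, 5.93 and 6.26 in BRAFV600E. The groups did not overlap, and the change was 0.43 ± 0.11 (SE, limma adjusted p = 0.0262). On slide 1 alone all 7 kept a positive change, between 0.31 for Rpl30 and 0.74 for Rpl7, and none was called, with adjusted p from 0.0954 to 0.317. Slide 1 was part of the fit that called these 7, so their changes there are a description and no separate test. Rpl7, Rps6 and Rpl23a remained called without any single one of the 12 arrays. With the mean of its probes, however, Rpl7 changed by 0.14 ± 0.13 (SE, limma adjusted p = 0.528) and was not called. It also lost its call with normexp background (limma adjusted p = 0.135). Rpl23a lost its call with quantile normalization and with normexp background (limma adjusted p = 0.0552 and 0.247). Rpl30 lost its call without Cre control replicate 3 or 5 or BRAFV600E replicate 4, and Rpl15 without Cre control replicate 2, 3 or 5 or BRAFV600E replicate 3 or 6. Rps7 kept its call only without Cre control replicate 4 or BRAFV600E replicate 2 or 4, and Rps2 only without BRAFV600E replicate 2 or 4.

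**Figure D2:**
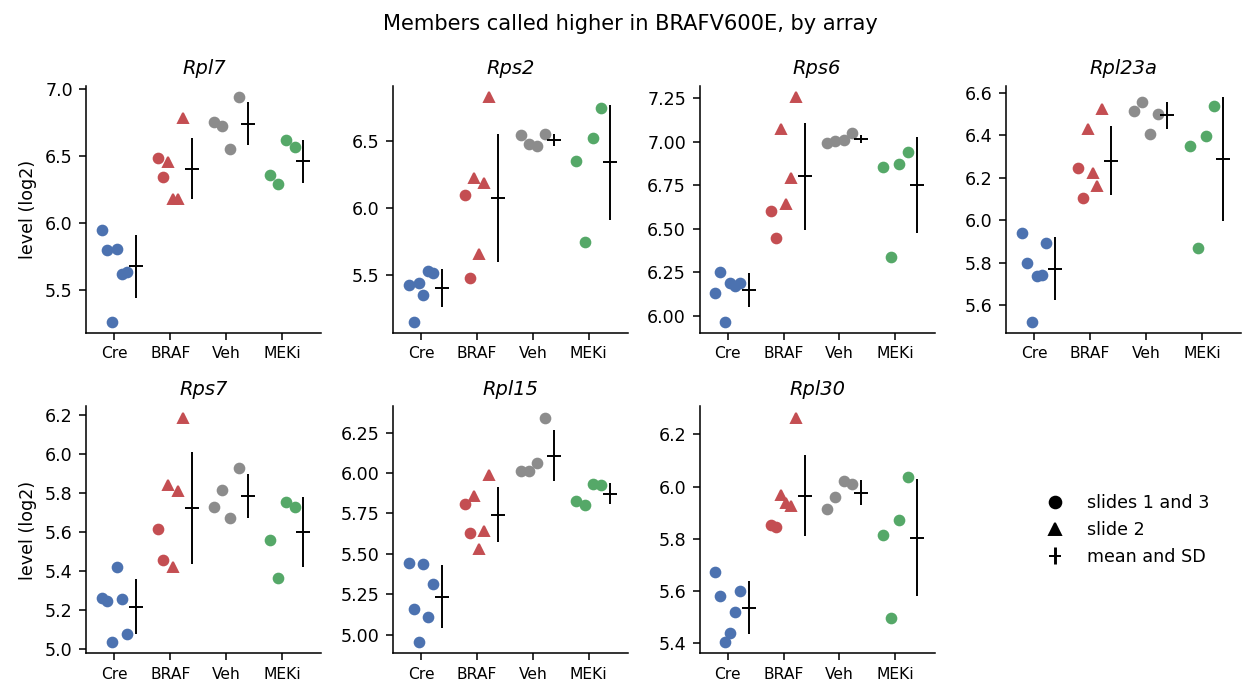
Levels (log2 relative to the 75th percentile of the array) of the 7 members called higher in BRAFV600E, on every array of the 4 groups (Cre, Cre control; BRAF, BRAFV600E; Veh, Vehicle), with mean and SD beside each group. Triangles mark slide 2; in Rpl7, Rps6, Rpl23a, Rpl15 and Rpl30 every BRAFV600E array lies above every Cre control array, those on slide 1 included.

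Every BRAFV600E array lay above every Cre control array for 6 of the 78 members (7.69%), beside 4.19% of all genes tested, and for no member below it. The sixth was Rpl5, named here after its values were seen, which carries the 5S ribosomal RNA into the large subunit and binds Mdm2. It read 5.16, 5.27 and 5.42 in Cre control and 5.45, 5.82 and 6.65 in BRAFV600E, with a change of 0.64 ± 0.20 (SE) and an adjusted p of 0.0567 by limma, just outside the threshold. On slide 1 its 2 mutant arrays averaged 5.47, close to the controls, and on slide 2 the 4 others averaged 6.16.

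Of the members with the largest negative changes in BRAFV600E, none of which was called, 3 are described. Rps4l, a transcribed pseudogene in RefSeq, read 3.35 at its lowest, 3.98 at the median and 4.39 at its highest in Cre control and 2.86, 3.51 and 4.30 in BRAFV600E, with a change of -0.35 ± 0.26 (SE, limma adjusted p = 0.409). Rps24, a small-subunit protein, changed by -0.28 ± 0.18 and Rplp1, of the P-stalk, by -0.24 ± 0.22 (SE, limma adjusted p = 0.326 and 0.501). All 3 had values that overlapped widely between the groups.

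The 3 proteins of the P-stalk, the flexible arm that calls elongation factors to the ribosome, were not called in BRAFV600E. Rplp0, its base and a common reference gene, read 7.12, 7.65 and 7.86 in Cre control and 7.08, 7.57 and 7.92 in BRAFV600E, a change of -0.02 ± 0.18 (SE). Rplp2 changed by 0.13 ± 0.33, with a control range of 6.40 to 8.47. These ranges show how little of a P-stalk change could have been seen with these arrays. Of other members used as reference genes, Rpl13a changed by -0.12 ± 0.21, Rps18 by -0.15 ± 0.19 and Rpl32 by -0.01 ± 0.15 (SE), and none was called. On slide 1 alone the changes were -0.34 ± 0.24 for Rplp0, -0.53 ± 0.28 for Rpl13a, -0.33 ± 0.20 for Rps18 and -0.31 ± 0.19 for Rpl32 (SE, limma adjusted p from 0.296 to 0.423).

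Paralogues were compared as pairs, each on its own probe. Rps27 changed by -0.11 ± 0.18 and its paralogue Rps27l, known as a target of p53, by 0.05 ± 0.18 (SE). The probe of Rps27 is placed by the files on chromosome 9, while RefSeq has the gene on chromosome 3. Rpl3, which shapes the peptidyl transferase centre, changed by 0.26 ± 0.13, Rpl10 by -0.004 ± 0.13 and Rpl39 by 0.21 ± 0.13, and none was called. Rpl22, an RNA-binding member that ribosomes can do without, changed by 0.31 ± 0.13 (SE, limma adjusted p = 0.131). Its paralogue Rpl22l1, which the naming rule leaves out, was called with a change of 0.47 ± 0.14 (SE, limma adjusted p = 0.0433), from 4.91 ± 0.20 to 5.39 ± 0.22 (SD, n = 6 each).

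The change in BRAFV600E ran with the level of the gene. The Spearman correlation between the Cre control level and the change was -0.75 over the 78 members and 0.10 over all 19037 genes tested, given as a description across genes that share the same arrays. On slide 1 alone it was -0.71 over the members and -0.13 over all genes. Of the 14 members under level 6 in Cre control, 13 had a positive change, 6 were called and the median was 0.37. From level 6 to 7, 28 of 30 had a positive change, 1 was called and the median was 0.23. At level 7 or more, 17 of 34 were positive, none was called and the median was 0.001. Probes of other genes at level 7 or more had a median change of -0.47, 201 of 223 of them negative, beside 0.01 for the 41 member probes at that level, a difference that was not tested. The Cre control level enters both measures, so part of a negative correlation comes from how they are computed.

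**Figure D3:**
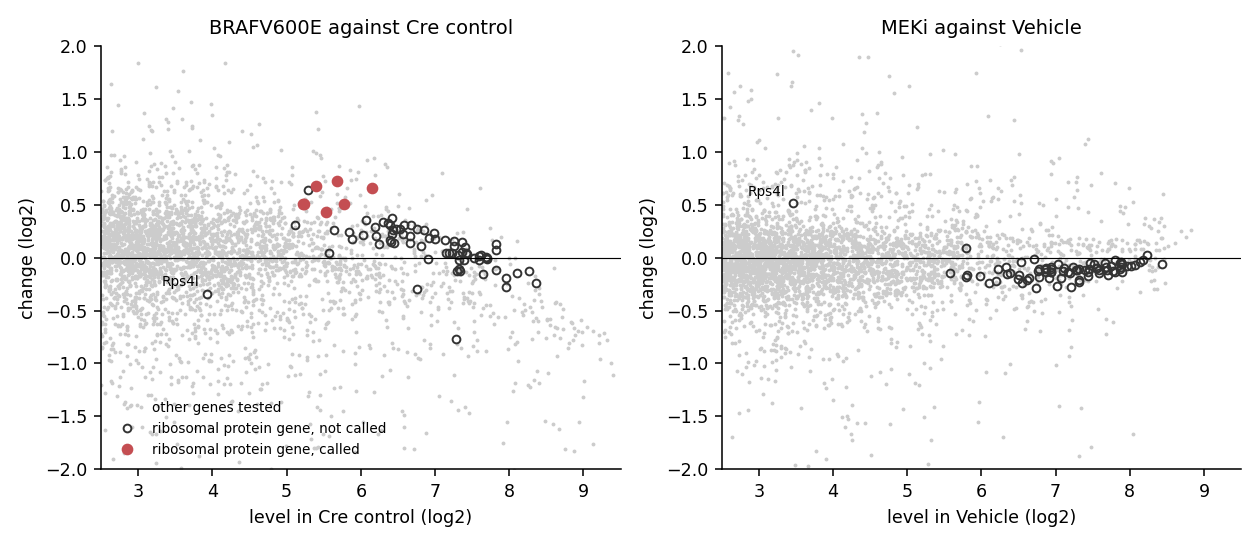
Change (log2) against the level in the control group (log2 relative to the 75th percentile of the array) for the tested members (circles, filled red where called at a limma adjusted p under 0.05) and for all other genes tested (grey), from level 2.5 up and within 2 log2 units of change. In BRAFV600E the members under level 6 lie mostly above 0, with a median of 0.37, and those at 7 or more lie around 0.001; under MEKi 76 of 79 members lie below 0.

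The same held between probes of a gene. Of 179 probes for the members, 171 were tested in BRAFV600E against Cre control, and with every probe fitted separately limma called 26 of them higher (15.2%), beside 5.39% of all 31303 probes tested, and 0 lower. The 26 belong to 21 genes, and probes of a gene are no independent replicates of it. Among the 78 probes that stand for their gene 6 were called, and among the 93 others, which are dimmer, 20 were called, with median changes of 0.15 and 0.31. In 46 of the 58 genes with several tested probes, the dimmest probe had a larger change than the brightest. Rpl12, which binds at the base of the P-stalk, gave 0.89 ± 0.19 (SE, limma adjusted p = 0.0136) on a dim probe and 0.27 ± 0.14 on its bright one. Rpl29 likewise gave 0.74 ± 0.13 (limma adjusted p = 0.00586) and 0.15 ± 0.13.

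Further probes went their own way. In 15 of the 58 genes, probes differed in sign. A dim probe of Rpl7 gave -0.65 ± 0.39 (SE) and a dim probe of Rpl3, level 4.50 in Cre control, gave -1.41 ± 0.68. Another dim probe of Rpl3, level 1.65, gave 0.67 ± 0.18 and was called (limma adjusted p = 0.0358). On slide 1 alone 0 of the 171 probes were called, 87 had a positive and 84 a negative change, and the median was 0.02. The 26 called probes all kept a positive change there, which is a description, since slide 1 was part of the fit that called them.

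**Figure D4:**
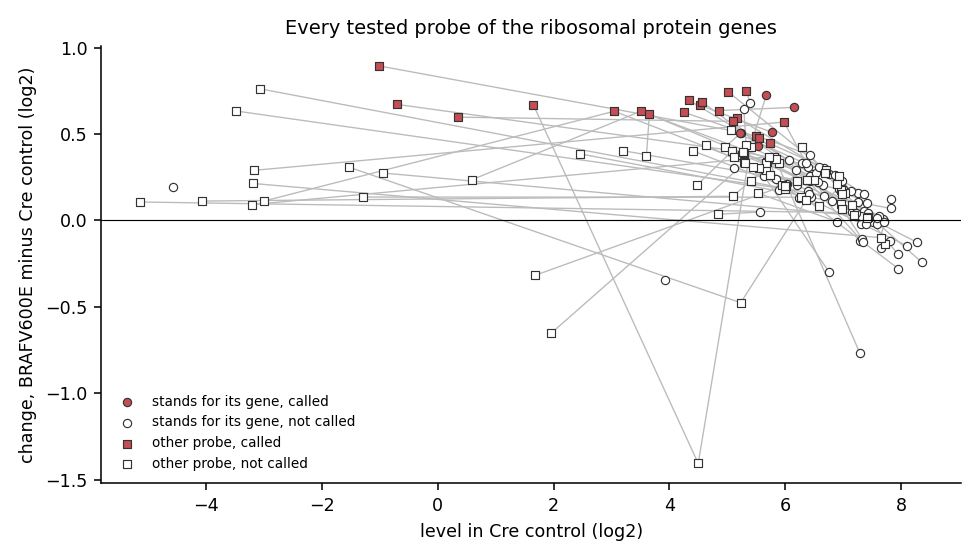
Change in BRAFV600E against Cre control (log2) of each of the 171 tested probes of the members, against its level in Cre control (log2 relative to the 75th percentile of the array). Lines join the probes of a gene, circles are the probes that stand for their gene, squares the others, and red marks the 26 called higher; called probes lie at control levels from -1.02 to 6.15, and no probe above that was called.

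In MEKi against Vehicle the members as a family lay lower, by a small amount. Of the 79 tested members 76 had a negative log2 fold change, beside 45.4% of all 19230 genes tested. The median was -0.11 over the members and 0.04 over all genes tested. Limma called 0 members lower, beside 0.884% of all genes tested, and 0 higher, beside 1.09%. At an unadjusted p under 0.05, 0 members were lower and 1 was higher. Every MEKi array lay below every Vehicle array for 3 members (3.80%), Rps6, Rpl15 and Rpl4, beside 5.76% of all genes tested. The 45 tested large-subunit proteins outside the P-stalk all had a negative change, with a median of -0.13, and the 31 of the small subunit had a median of -0.09.

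The median member level read 7.22, 7.11, 7.20 and 7.05 on the Vehicle arrays and 7.09, 6.73, 6.88 and 7.21 on the MEKi arrays. MEKi replicates 2 and 3 lay below every Vehicle array, while replicates 1 and 4 lay within the Vehicle range. The means were 7.14 ± 0.08 and 6.98 ± 0.22 (SD, n = 4 each), a difference that the spread of the MEKi arrays exceeds. Without MEKi replicate 2 the median change over the members was -0.02, with 28 of 79 positive.

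The 5 largest decreases under MEKi were those of Rpl7, Rpl21, Rps6, Rps15a and Rpl15, and 3 of these 5 had been called higher in BRAFV600E. Rpl7 read 6.75, 6.72, 6.55 and 6.94 in Vehicle and 6.35, 6.29, 6.62 and 6.57 in MEKi, which overlap, with a change of -0.28 ± 0.14 (SE, limma adjusted p = 0.356). Rps6 read 6.99, 7.01, 7.01 and 7.05 in Vehicle and 6.85, 6.34, 6.87 and 6.94 in MEKi, with a change of -0.26 ± 0.15 (SE, limma adjusted p = 0.458). No MEKi array reached a Vehicle array, the Vehicle arrays lay close together (SD 0.02), and MEKi replicate 2 stood well below the other 3.

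Rpl15 read 6.02, 6.01, 6.06 and 6.34 in Vehicle and 5.83, 5.80, 5.93 and 5.93 in MEKi, again apart, with a change of -0.23 ± 0.12 (SE, limma adjusted p = 0.390). Rpl21, a large-subunit protein with many processed pseudogenes, changed by -0.28 ± 0.14 and Rps15a, of the small subunit, by -0.24 ± 0.15 (SE, limma adjusted p = 0.388 and 0.511). Of the other members called in BRAFV600E, Rpl23a changed by -0.21 ± 0.16, Rps7 by -0.18 ± 0.13, Rpl30 by -0.17 ± 0.14 and Rps2 by -0.17 ± 0.21 under MEKi, and none was called.

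The 3 members with a positive change under MEKi were Rps4l, Rps27l and Rplp1. Rps4l read 3.58, 3.75, 3.40 and 3.11 in Vehicle and 3.84, 4.16, 3.83 and 4.05 in MEKi, and every MEKi array was the higher. The change was 0.51 ± 0.17 (SE, limma adjusted p = 0.179), and since the transcript is a copy related to Rps4x, the assignment of its signal is uncertain. Rps27l changed by 0.09 ± 0.13 and Rplp1 by 0.03 ± 0.17 (SE). Rplp0 and Rplp2 changed by -0.05 ± 0.15 and -0.04 ± 0.16, Rpl13a by -0.09 ± 0.19, Rps18 by -0.03 ± 0.17 and Rpl32 by -0.16 ± 0.14 (SE). Among the paralogue pairs, Rps27 (-0.05 ± 0.15), Rpl3 (-0.12 ± 0.14), Rpl39 (-0.19 ± 0.16), Rpl10 (-0.08 ± 0.12), Rpl10l (-0.02 ± 0.22) and Rpl22 (-0.15 ± 0.14) were not called, nor was Rpl22l1 (-0.03 ± 0.13, SE).

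The comparisons use different mice and slides, so their changes can be set side by side. Of the 78 members tested in both, 57 (73.1%) had a positive change in BRAFV600E and a negative one under MEKi, beside 32.6% of 18574 genes. With BRAFV600E taken on slide 1 alone, 24 members (30.8%) did so, beside 30.3% of all genes, and without MEKi replicate 2 the number was 42 (53.8%), beside 30.4%, both settings having been chosen after seeing the data. The Spearman correlation of the changes was -0.74 over the members and -0.55 over all those genes, -0.74 over the members with slide 1 alone, and -0.47 without MEKi replicate 2. The points share the probes and the arrays of each comparison, and within the members the change under MEKi also ran with the Vehicle level (Spearman correlation 0.36, n = 79). Among the members, larger changes in BRAFV600E thus tended to go with lower values under MEKi.

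**Figure D5:**
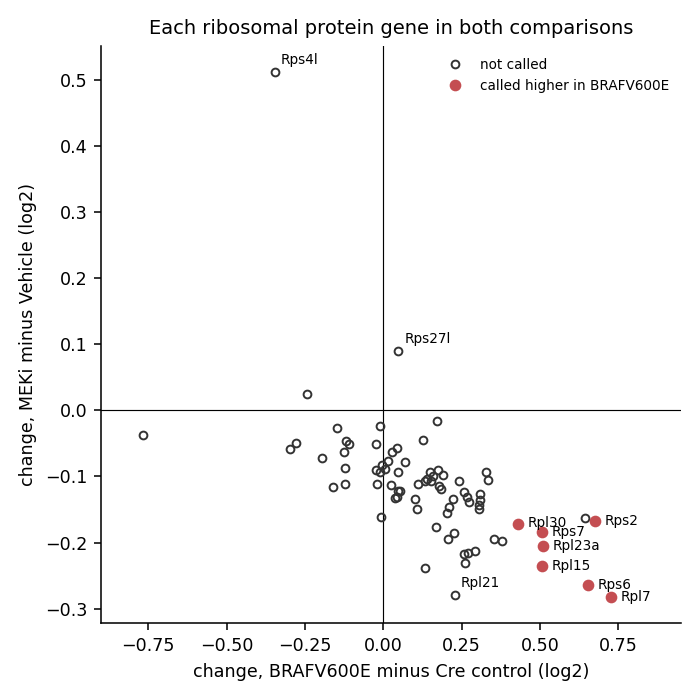
Change of each of the 78 members tested in both comparisons, BRAFV600E minus Cre control (log2, x axis) against MEKi minus Vehicle (log2, y axis), with the 7 members called higher in BRAFV600E in red. The points fall from upper left to lower right (Spearman correlation -0.74), with all 7 called members below 0 on the y axis, between -0.28 and -0.17, and Rps4l apart from the others at -0.35 and 0.51.

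Other genes of ribosome production and translation, in lists written from general knowledge, were set beside the members. The 44 genes of ribosome assembly and RNA polymerase I had a median change of 0.36 in BRAFV600E, with 40 positive and 5 called higher (beside 6.19% of all genes). Under MEKi their median was -0.55, with 41 negative and 4 called lower (beside 0.884% of all genes). Efl1, which releases an assembly factor from the new large subunit, rose by 0.89 ± 0.13 (SE, limma adjusted p = 0.00115) in BRAFV600E. Nop58, a core protein of the box C/D particles that methylate ribosomal RNA, changed by -0.80 ± 0.13 and Nolc1, a nucleolar chaperone, by -0.92 ± 0.17 under MEKi (SE, limma adjusted p = 0.0268 and 0.0417). Under MEKi these assembly genes thus lay lower, at the median, than the ribosomal proteins they assemble, a difference that was not tested.

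The counts that follow stand beside the same 6.19% of all genes called higher in BRAFV600E. Counts called lower stand beside 6.27% of all genes in BRAFV600E and 0.884% under MEKi. The 35 initiation factors had a median of 0.28 in BRAFV600E with 7 called higher, among them Eif2a at 1.11 ± 0.23 (SE, limma adjusted p = 0.00966), and of -0.22 under MEKi with 0 called. The 9 tested elongation factors had medians of 0.27, with 2 called higher, and -0.13, with 0 called. The 14 other transcripts with a terminal oligopyrimidine tract had medians of 0.33, with 3 called higher, and -0.11, with 0 called. The 78 mitochondrial ribosomal proteins, which build the separate ribosome of the organelle, had medians of 0.24, with 8 called higher, and -0.02, with 0 called. The 7 tested cytosolic ribosomal proteins outside the naming rule (Fau, Rpsa and others) had medians of -0.10 and -0.04, with Rpl22l1 and Rpl7l1 called higher in BRAFV600E and 0 called under MEKi.

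Of the 23 genes of mTORC1 and the S6 kinases, 5 were called higher and 1 lower in BRAFV600E, and 1 lower under MEKi. That gene was Eif4ebp1, the repressor of cap-dependent translation, which rose by 1.13 ± 0.13 in BRAFV600E and fell by 1.18 ± 0.15 on the log2 scale under MEKi (SE, limma adjusted p = 0.000243 and 0.0116). Of the 10 genes of Myc and its partners, Myc was called higher in BRAFV600E (0.94 ± 0.28, SE, limma adjusted p = 0.0488) and Mycn lower (-0.97 ± 0.18, SE). Under MEKi 0 were called, with Myc at a mean level of -0.28 in Vehicle and -1.28 in MEKi (limma adjusted p = 0.112). On slide 1 alone the calls in BRAFV600E fell to 1 for ribosome assembly, 0 for initiation factors, 1 for mitochondrial ribosomal proteins and 3 for mTORC1, and to 0 for elongation factors, other oligopyrimidine transcripts, other cytosolic ribosomal proteins and Myc with its partners. The medians there were 0.31 for assembly, 0.13 for initiation, 0.17 for elongation, 0.24 for other oligopyrimidine transcripts, 0.21 for mTORC1 and 0.08 for mitochondrial ribosomal proteins. Other cytosolic ribosomal proteins were at -0.30, with 5 of 7 negative, and Myc with its partners turned to -0.19.

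Markers of other cells of the tissue moved as well. Over all genes tested, 6.19% were called higher and 6.27% lower in BRAFV600E, and 0.884% lower under MEKi. In BRAFV600E, markers called lower were 3 of 4 of Paneth cells, 2 of 4 of goblet cells, 2 of 5 tested of T cells and 1 of 5 of myeloid cells, and markers called higher were 2 of 6 of gut epithelium, 1 of 7 of enterocytes, 1 of 5 of proliferating crypt, 2 of 6 of smooth muscle and 1 of 4 tested of exocrine pancreas, with 0 called of 6 tested of B and plasma cells and of 5 of fibroblasts. The other 6 enterocyte markers had negative changes, the median of the 7 was -0.42, and with slide as a block 3 were called lower and the median was -1.02. Under MEKi 1 of 6 epithelial markers was called lower and 0 of any other list. The summed level of the proliferating crypt markers, on the linear scale with the 75th percentile of the array as 1, ran from 18.1 to 25.8 in Cre control and from 23.1 to 30.7 in BRAFV600E. That of the T cell markers ran from 6.27 to 42.9 and from 4.22 to 13.4, and that of B and plasma cells, which make many ribosomes, from 55.2 to 149 and from 25.6 to 79.1. The exocrine pancreas markers summed to between 5.00 and 1093 in Vehicle and to between 3.54 and 4.42 in MEKi. The part of these cells in the values of the ribosomal protein genes was not tested.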

How the data were processed

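Per the file headers, the authors scanned 1-colour Agilent arrays and extracted a processed intensity per spot with Agilent Feature Extraction (10.5.1.1 in the submitters' notes), linear and not scaled between arrays, along with the mean and background intensity. The deposited marks for spots above background or outlying are of another kind, 0 or 1, and served as filters. The deposited matrix held the same intensity within 0.5% and was used without scaling as an alternative.

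Outlier spots were dropped, log2 taken, the 75th percentile of each array subtracted and copies averaged. Of 56605 probes, 34023 were named by RefSeq accession, 9993 by symbol and 318 by synonym. The probe with the highest mean stood for its gene. Arrays of the 2 groups compared entered each fit, without covariates, in limma 3.58.1 in R 4.3.3, two-sided, and the fit was tested on simulated data. Probe coordinates are the files' own, on mm9; their place in exons or UTRs was not analysed here. The labels' treatment text is the same for all arrays, fits no group and was not used. Alternatives covered scaling, background, filter, probe, slide, Y-linked signal, array weights and left-out arrays.

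Named members were all those called, the 5 largest changes in a direction with fewer than 5 called, the P-stalk, paralogue pairs and reference genes; of each list, the genes with the largest changes. Members, lists and this rule were chosen with earlier results of these data known. Some genes that this rule names are not reported here.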

Additional observations from a re-analysis of the deposited data

Results flagged for a closer look

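Among 98 sets of values (a named member, or the median member, in a group), 5 held an array far from the others of its group; chance marks about 1 set in 20, so this number is near what chance gives. In BRAFV600E, Rpl30 read 6.26 on replicate 6, above the others at 5.85 to 5.97. MEKi replicate 2 was the low array for Rps6 (6.34, others 6.85 to 6.94) and for Rps27l (5.64, others 5.93 to 5.99). In Vehicle, Rpl15 read 6.34 on replicate 4, above the others at 6.01 to 6.06, and Rpl10l read -4.75 on replicate 1, above the others at -5.31 to -5.31, where the probe was near background.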

How the results depend on the processing

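The count of 7 members called in BRAFV600E was 0 with slide as a block, 0 on slide 1 alone and 0 on the 5 arrays with a spike-in slope between 0.9 and 1.2 (an alternative chosen after seeing the data). It was 73 without scaling, where 48.2% of all genes were called higher and 98.1% of all calls were higher, beside 49.7% in the reported fit, and 11 with the dimmest probe of each gene (also chosen after seeing the data). With quantile normalization 10 members were called, only 3 of them among the 7, and with normexp background 6 (5 higher and 1 lower), only 1 of them (Rps6) among the 7. Without single arrays the count ran from 3 to 8, with 3 without Cre control replicate 3 or 5 and 4 without Cre control replicate 2 or BRAFV600E replicate 3 or 6. The median change over the members in BRAFV600E was 0.95 without scaling (all genes shifted by 0.79) and turned to -0.13 with slide as a block and -0.13 on slide 1 alone, and the cause was not tested. Slide 2 held only BRAFV600E arrays, so these last 2 settings take the change from slide 1 and give the same estimate. On the arrays chosen by spike-in slope it was 0.01, with 41 members positive and 37 negative, in the other 10 settings it ran from 0.12 to 0.27, and without single arrays it ran from 0.09 to 0.21. In MEKi against Vehicle 0 members were called in every setting, and the median ran from -0.17 to -0.03 and, without single arrays, from -0.18 to -0.02. Of single members in BRAFV600E, the change turned positive and was called without scaling for Rplp0 (0.79), Rps27 (0.70), Rpl10 (0.81), Rpl13a (0.69), Rps18 (0.66) and Rpl32 (0.80), and for Rpl10 (0.41) with normexp, and it turned negative for Rpl7 (-0.65) with its dimmest probe. No paired analysis was possible because the replicate numbers follow accession order and pair no mice. All 20 arrays in 1 fit, array weights, the Y-linked signal as a covariate and both filters left each count within 1.5 times. Slide 1 held 2 mutant arrays, and limma called 734 genes there.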
